A study of Homo sapiens with 3 samples.

Results

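The genes described are those of cholesterol and fatty acid synthesis, measured in 3 human cell lines with 1 exon array per line. They were chosen as a list of 29 genes: 18 enzymes that build cholesterol from acetyl-CoA, 6 genes of fatty acid synthesis and 5 genes that regulate the pathway or carry sterol. Of these, 24 had a transcript cluster, the array's unit of measurement for a gene, annotated with a single symbol, among 14410 genes so measured. HSD17B7, ACAT2, CYP51A1 and SREBF2 had only clusters annotated with several symbols and FDFT1 had no cluster listed, so these 5 genes were not analysed here.

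The first group was HT-29, a line from a colon adenocarcinoma, grown with 10% fetal bovine serum in McCoy's 5A and exposed to interferon gamma (IFN-γ) at 200 U/ml for 24 h. The second was MCF10A, a non-tumorigenic mammary epithelial line, whose DMEM/F12 medium held 5% horse serum, epidermal growth factor at 20 ng/ml, hydrocortisone at 500 ng/ml, cholera toxin at 100 ng/ml and insulin at 10 µg/ml. The third was MDA-MB-436, from a breast adenocarcinoma, grown in L-15 medium with 10% fetal bovine serum. For the mammary lines the labels name no cytokine, and HT-29 cells left without the cytokine were not analysed here. Line and whichever of medium, serum, hormones and cytokine differ between 2 cultures therefore cannot be told apart. By the labels, the cytokine does not differ between the mammary lines. With 1 array per line there is no replicate spread, so no test, p-value or standard error is given and the differences describe these 3 arrays. The 3 differences between lines share arrays, so a property of 1 array enters 2 of them. Each array averages a whole culture, so that fewer cells using a gene and less RNA of it per cell cannot be told apart.

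Cholesterol is made from acetyl-CoA through mevalonate, farnesyl diphosphate, squalene and lanosterol, and fatty acids are made from acetyl-CoA through malonyl-CoA. The genes of both routes are controlled by sterol regulatory element binding proteins, membrane-bound transcription factors made from SREBF1 and SREBF2. When membrane sterol is low, the escort protein SCAP carries them from the endoplasmic reticulum to the Golgi, where they are cut and released to the nucleus. When sterol is plentiful, INSIG proteins hold SCAP back. The released factors act at promoters together with the general factors NF-Y and SP1. Cultured cells can also take up cholesterol from serum lipoproteins, and insulin is known to raise SREBF1 activity.

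The arrays had median intensities between 75.1 and 81, in the linear units of the deposited table. The background was set at an intensity of 29.9, the 95th percentile of 228 olfactory receptor genes, which are not normally used outside olfactory tissue; their highest value was 101. GAPDH and ACTB differed by less than 1.1-fold between any 2 arrays. Both lay between 4437 and 5319, near the highest values of 6060 to 6611, so they do not show the scaling of dimmer genes. IRF1, a direct target of IFN-γ signalling, was at 3961 in HT-29, at 94.9 in MCF10A and at 326 in MDA-MB-436. Of 8 intestinal markers, 7 were above background in HT-29, 2 in MCF10A, and 3 for MDA-MB-436, with CDH17 under background in HT-29 and CDX1 just over it at 34.8. The 3 measured basal mammary markers were all above background in MCF10A and all under it in MDA-MB-436. All 7 mesenchymal markers were above background in MDA-MB-436, 5 in MCF10A and 0 in HT-29. Of the luminal mammary list, 5, 5 and 4 of 6 genes were above background in HT-29, MCF10A and MDA-MB-436, of the fibroblast list 1, 1 and 2 of 5, and of the leukocyte list CD14 alone of 3 in each line. The endothelial list had 0 of 4 genes above background in every line. The adipocyte list, a cell type with high lipid synthesis, had 2 of 5 above background in each line, PLIN1 and PPARG, and its defining markers ADIPOQ and FABP4 were under background in all 3. Of the hepatocyte list only APOA1 was above background, at 41.9 to 68.1, and ALB was at most 8.03.

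All 24 measured synthesis genes were above background in all 3 lines. MCF10A gave the highest intensity for 18 of the 24 (75%), HT-29 for 4 and MDA-MB-436 for 2. Over the 10709 genes above background in at least 1 line, MCF10A was highest for 33.4%, HT-29 for 37.8% and MDA-MB-436 for 28.8%. HT-29 was lowest for 13 members (54.2%) against 32.4% of these genes, and MDA-MB-436 for 10 (41.7%) against 36.7%. Which of these lines was lowest depended on the scaling for 8 members: after quantile normalization HT-29 was lowest for 18 and MDA-MB-436 for 5, against 35.7% and 35.5% of all genes, and after median centring for 10 and 13, against 30.2% and 42.8%. MCF10A was at least 2-fold above both other lines for 6 members (25%), against 5.03% of those genes: MVK, FDPS, MSMO1 and DHCR7 of the cholesterol route, and FASN and ELOVL6 of the fatty acid route. MCF10A was lowest for 1 member, TM7SF2, against a background of 30.9%. After quantile normalization MCF10A was still highest for 18 members, and after median centring for 19, with INSIG1 added. The number at least 2-fold above both other lines was 5 after quantile normalization, without FASN, and 8 after centring, with IDI1 and ACSS2 added.

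**Figure D1:**
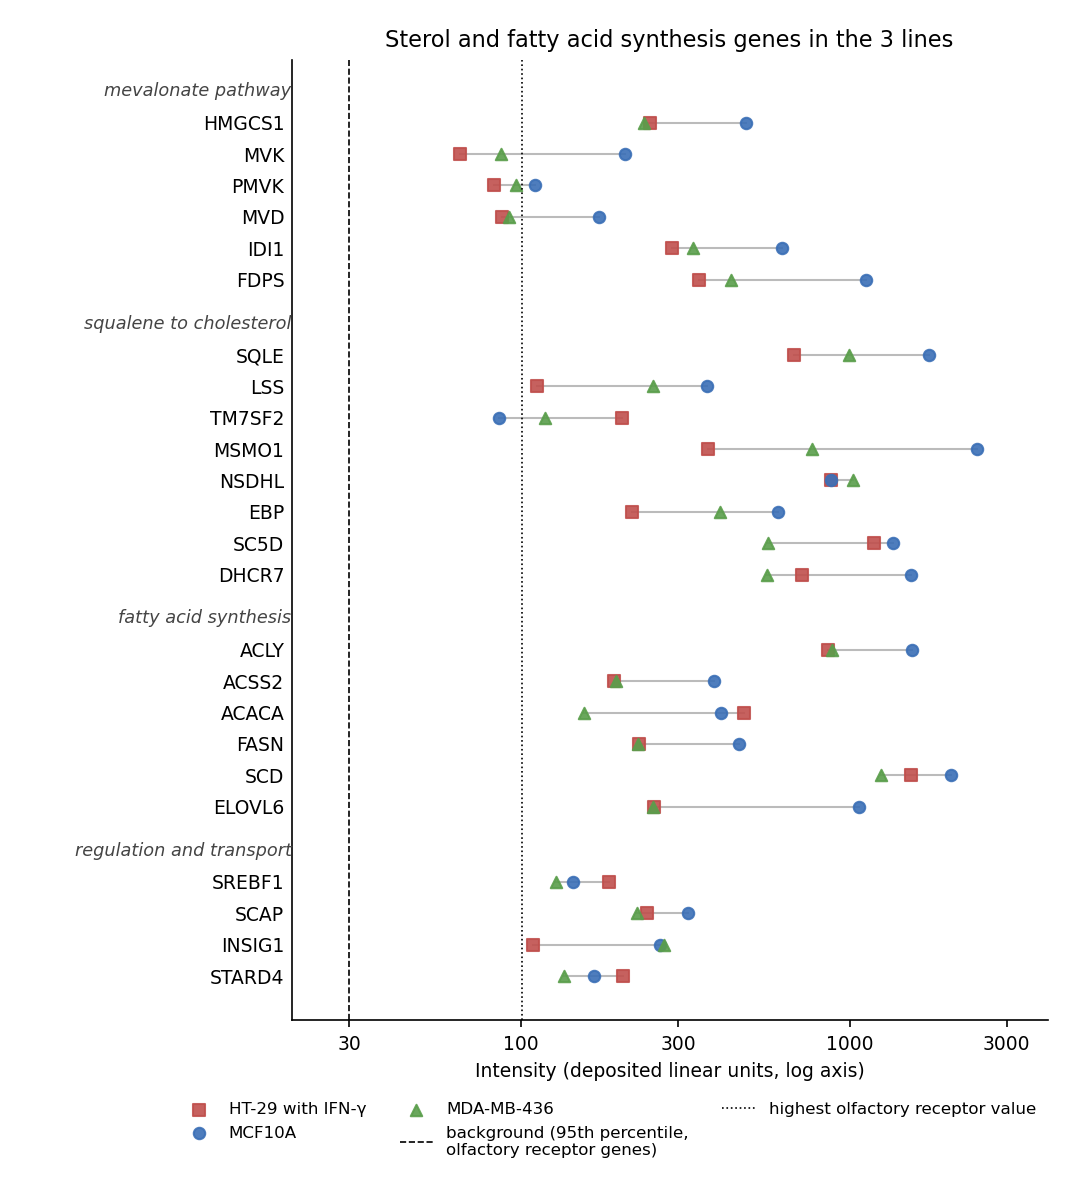
Intensity of the 24 measured genes (x axis, deposited linear units on a log scale) in HT-29 with IFN-γ (red squares), MCF10A (blue circles) and MDA-MB-436 (green triangles), 1 array each, grouped by role; grey lines span the 3 values, the dashed line is the background of 29.9 and the dotted line the highest olfactory receptor value of 101. The MCF10A circle is rightmost in 18 of 24 rows, and TM7SF2 has it leftmost. The 2 other lines lie within 1.1-fold for HMGCS1, MVD, ACLY, ACSS2, FASN, ELOVL6 and SCAP.

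Promoter windows of the measured genes are given here because many of them share a short sequence. RefSeq promoter windows (GRCh38.p14), from 250 bases before to 50 bases after a start site, were found for 22 of the 24 genes, 31 windows in all; SQLE and FASN are named only. The NF-Y box, CCAAT on either strand, was in the windows of 18 of these 22 genes (81.8%), against 42.9% of 11523 genes with a value on the arrays and a window. Per window the shares were 71% and 34.7%, and 34.6% over all 35116 windows. The GC box GGGCGG, the SP1 site, was in windows of 21 of 22 genes (95.5%) against 67.3%. The E-box CACGTG was in windows of 4 of 22 (18.2%) against 11.2%. The sterol regulatory element TCACNCCAC was found in 0 of 31 member windows and in 1.17% of 16613 windows of genes on the arrays; sites that differ from these letters or lie outside the windows were not searched. The windows of the members had a median GC content of 69%, against 63% for the genes on the arrays, and the part of base composition in these shares was not tested. All motifs were searched on both strands; windows of 1 gene can overlap, and a GC box and a reversed NF-Y box can share bases where they adjoin.

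The windows of 6 genes follow, written 5′ to 3′ on the gene's strand, with each NF-Y box in capitals as CCAAT or, on the other strand, ATTGG. MSMO1, MVK, FDPS, DHCR7 and ELOVL6 are 5 of the 6 genes at least 2-fold above both other lines in MCF10A. NSDHL was close to equal in the 3 lines as deposited. For DHCR7 the window that holds boxes is shown; its other window holds 0.
MSMO1, chr4:165327419-165327718, plus strand: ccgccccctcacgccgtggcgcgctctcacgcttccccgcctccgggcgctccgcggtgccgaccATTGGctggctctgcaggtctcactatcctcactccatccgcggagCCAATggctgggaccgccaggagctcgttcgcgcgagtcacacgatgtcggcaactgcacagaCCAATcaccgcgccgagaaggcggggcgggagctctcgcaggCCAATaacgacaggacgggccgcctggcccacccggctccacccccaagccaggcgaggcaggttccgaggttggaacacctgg
MVK, chr12:109573544-109573843, plus strand: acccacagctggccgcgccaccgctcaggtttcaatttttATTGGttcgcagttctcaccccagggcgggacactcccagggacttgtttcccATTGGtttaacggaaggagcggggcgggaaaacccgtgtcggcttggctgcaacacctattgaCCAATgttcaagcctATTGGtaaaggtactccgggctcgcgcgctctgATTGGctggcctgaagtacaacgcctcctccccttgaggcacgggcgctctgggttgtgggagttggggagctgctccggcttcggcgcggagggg
FDPS, chr1:155308616-155308915, plus strand: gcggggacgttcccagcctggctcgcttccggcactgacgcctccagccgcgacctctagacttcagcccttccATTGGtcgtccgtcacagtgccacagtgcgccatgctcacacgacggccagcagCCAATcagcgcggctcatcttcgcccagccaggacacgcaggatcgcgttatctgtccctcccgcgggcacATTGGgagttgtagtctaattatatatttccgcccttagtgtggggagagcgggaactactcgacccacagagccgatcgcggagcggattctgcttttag
DHCR7, chr11:71448344-71448643, minus strand: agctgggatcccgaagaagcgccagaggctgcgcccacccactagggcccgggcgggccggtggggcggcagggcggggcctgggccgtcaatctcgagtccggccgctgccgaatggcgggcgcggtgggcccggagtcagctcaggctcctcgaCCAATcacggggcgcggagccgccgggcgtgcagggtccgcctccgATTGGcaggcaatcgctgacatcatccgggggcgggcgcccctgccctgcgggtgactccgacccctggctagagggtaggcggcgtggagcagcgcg
ELOVL6, chr4:110198566-110198865, minus strand: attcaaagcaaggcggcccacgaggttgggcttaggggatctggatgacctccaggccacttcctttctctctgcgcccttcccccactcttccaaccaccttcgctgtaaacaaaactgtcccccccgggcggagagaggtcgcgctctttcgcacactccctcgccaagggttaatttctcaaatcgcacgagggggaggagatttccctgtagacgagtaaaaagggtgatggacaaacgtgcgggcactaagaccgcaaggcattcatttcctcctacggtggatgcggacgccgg
NSDHL, chrX:152830813-152831112, plus strand: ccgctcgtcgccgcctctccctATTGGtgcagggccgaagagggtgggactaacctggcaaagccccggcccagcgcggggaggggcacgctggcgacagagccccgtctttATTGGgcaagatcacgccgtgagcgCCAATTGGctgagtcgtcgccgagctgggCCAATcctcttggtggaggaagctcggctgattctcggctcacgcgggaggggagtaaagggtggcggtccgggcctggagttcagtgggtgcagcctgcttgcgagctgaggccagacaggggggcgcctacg
MVK and NSDHL hold 5 boxes each, MSMO1 4, FDPS 3, DHCR7 2 and ELOVL6 0. In NSDHL a pair of boxes on opposite strands overlaps and is read as 1 run of capitals. These 6 genes were picked by their differences, so they cannot show whether the number of boxes follows the differences. ELOVL6, with 0, had the lowest log2 difference of all members for MDA-MB-436 minus MCF10A, at -2.08. NSDHL, with 5, was at 0.22 as deposited and at 0.52 after quantile normalization. For MDA-MB-436 minus MCF10A, the 18 members with a box had a median log2 difference of -0.90 and the 4 without, ELOVL6, PMVK, SCAP and SREBF1, of -0.35, with ranges that overlap. Over all genes above background the medians were -0.07 with a box and -0.08 without. The matched letters describe the windows only; binding was not measured.

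The mevalonate pathway turns acetyl-CoA units into the isoprenoid farnesyl diphosphate, and all 6 measured enzymes were brightest in MCF10A. FDPS, which makes farnesyl diphosphate, was at 347 in HT-29, at 1117 in MCF10A and at 436 in MDA-MB-436. MVK, the kinase that phosphorylates mevalonate, was at 65.1, 206 and 86.8 in the same order. For both genes MCF10A stood apart and the other two lines lay within 1.5-fold of each other, at 1.26-fold for FDPS and 1.33-fold for MVK. HMGCS1, which condenses acetyl-CoA and acetoacetyl-CoA, was at 247 in HT-29, at 482 in MCF10A and at 237 in MDA-MB-436. IDI1, the isomerase of isopentenyl diphosphate, was at 289, 622 and 333. MVD, which forms isopentenyl diphosphate, was at 87.1, 172 and 92.1. These 3 genes had the same shape as FDPS with folds close to 2: MCF10A was 1.95-fold over HT-29 for HMGCS1, 2.16-fold for IDI1 and 1.98-fold for MVD. PMVK, the second mevalonate kinase, was at 82.8, 110 and 96.6, so its 3 values lay within 1.33-fold. MVK, PMVK and MVD were under the highest olfactory receptor value of 101 in HT-29 and MDA-MB-436, where their folds are the least secure.

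The route from squalene to cholesterol held both the largest difference and the clearest exceptions. MSMO1, the oxidase that removes methyl groups from the sterol ring, was at 369 in HT-29, at 2430.45 in MCF10A and at 768 in MDA-MB-436. Its 3 lines were all at least 2-fold apart, MCF10A 3.16-fold over MDA-MB-436 and MDA-MB-436 2.08-fold over HT-29, the latter under 2-fold after median centring (log2 difference of HT-29 minus MDA-MB-436 -0.96). SQLE, the squalene epoxidase, a rate-limiting step, was at 678, 1737 and 994 in the same order. LSS, which cyclises the epoxide to lanosterol, was at 112, 367 and 252. EBP, a sterol isomerase, was at 218, 603 and 401. In these 4 genes HT-29 was lowest and MDA-MB-436 in the middle; for LSS the mammary lines were within 1.46-fold and HT-29 was 2.26-fold below the lower of them.

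DHCR7 and SC5D, which act at the end of the route, had MDA-MB-436 as the lowest line. DHCR7, a reductase that completes cholesterol, was at 716 in HT-29, at 1535 in MCF10A and at 561 in MDA-MB-436. SC5D, a sterol desaturase, was at 1184, 1352 and 565, so that HT-29 and MCF10A were within 1.14-fold and MDA-MB-436 stood 2.1-fold below HT-29, under 2-fold after quantile normalization (log2 difference of HT-29 minus MDA-MB-436 0.77). NSDHL, which acts with MSMO1 in removing the ring's methyl groups, was at 876 in HT-29, at 876 in MCF10A and at 1020.4 in MDA-MB-436, a spread of 1.17-fold. Its partner in the same step, MSMO1, had a spread of 6.58-fold. TM7SF2, a sterol reductase, went the other way, at 203 in HT-29, at 85.4 in MCF10A and at 118 in MDA-MB-436. It was the only cholesterol enzyme measured that was lowest in MCF10A, where its value was under the highest olfactory receptor value.

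In fatty acid synthesis, 5 of the 6 genes were highest in MCF10A, and for 4 of them the deposited values of HT-29 and MDA-MB-436 nearly coincided. ELOVL6, which lengthens palmitate, was at 253 in HT-29, at 1064 in MCF10A and at 251 in MDA-MB-436. MCF10A was thus 4.2-fold over HT-29 and 4.23-fold over MDA-MB-436. FASN, the synthase that makes palmitate, was at 229, 459.9 and 226. ACSS2, which makes acetyl-CoA from acetate, was at 191, 387 and 194. ACLY, which makes cytosolic acetyl-CoA from citrate, was at 859, 1547 and 880.03. For ELOVL6, FASN, ACSS2 and ACLY the HT-29 and MDA-MB-436 values differed by 1.01 to 1.02-fold, while MCF10A was 1.76-fold or more above each of them. For ACLY this depended on the scaling. After quantile normalization its log2 difference was -0.33 for HT-29 minus MDA-MB-436 and -0.54 for MDA-MB-436 minus MCF10A. SCD, the desaturase that makes oleate, was at 1536 in HT-29, at 2039 in MCF10A and at 1241 in MDA-MB-436, so that MCF10A was 1.33-fold over HT-29 and HT-29 within 1.24-fold of MDA-MB-436. ACACA, the carboxylase that makes malonyl-CoA, differed from the rest of the route: it was at 476 in HT-29, at 405 in MCF10A and at 155 in MDA-MB-436. HT-29 and MCF10A were within 1.18-fold for ACACA, and MDA-MB-436 was 2.62-fold below MCF10A and 3.08-fold below HT-29.

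Of the 4 measured regulators, SCAP was highest in MCF10A, as was INSIG1 after median centring only. SREBF1 was at 184 in HT-29, at 144 in MCF10A and at 128 in MDA-MB-436, and SCAP at 242, 321 and 225. STARD4, which carries cholesterol between membranes, was at 204, 167 and 135. For each of these 3 genes, lines next to each other in rank were within 1.33-fold, and SREBF1 and STARD4 were highest in HT-29. INSIG1, itself a target of the pathway, was at 108 in HT-29, at 264 in MCF10A and at 272 in MDA-MB-436. HT-29 alone was low for INSIG1, 2.43-fold below MCF10A, and the mammary lines were within 1.03-fold, and their order turned when the arrays were median centred (log2 -0.06 in place of 0.05). Transcript levels of SREBF1 and SCAP do not show how much of the factor was cut and active, which these arrays did not measure.

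Between the mammary lines, MDA-MB-436 was lower than MCF10A by 2-fold or more for 9 of 24 members (37.5%) and higher for 0. Over the 10308 genes above background in either line, 12.2% were at least 2-fold lower and 12.2% at least 2-fold higher. The 9 genes were HMGCS1, MVK, FDPS, MSMO1, SC5D, DHCR7, ACACA, FASN and ELOVL6. ELOVL6 was the single gene past 4-fold, against 2.81% of all genes, with a log2 difference of -2.08 that only 2.63% of genes lay under. ACSS2, at 1.998-fold lower, was just outside the count, and FASN and HMGCS1, both at 2.03-fold, just inside. The median log2 difference was -0.86 over all 24 members, -0.90 over the 14 cholesterol enzymes, -1.01 over the 6 fatty acid genes and -0.24 over the 4 regulators, against -0.08 over all genes. For 21 of 24 members the value was below 0, with INSIG1, NSDHL and TM7SF2 above it. Median centring shifted the median of all genes by -0.11 in this comparison, and the members' median was then -0.97 against -0.19. The count of 9 became 6 after quantile normalization and 12 after centring, with 25% and 50% of members against 10.8% and 14.9% of all genes; HMGCS1, SC5D and FASN were lost in the first and MVD, IDI1 and ACSS2 gained in the second.

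Between HT-29 with IFN-γ and MCF10A, 12 of 24 members (50%) were lower in HT-29 by 2-fold or more and 1, TM7SF2, was higher. Over 10174 genes above background in either line the shares were 14.3% and 14.4%. The lower genes were MVK, IDI1, FDPS, SQLE, LSS, MSMO1, EBP and DHCR7 of the cholesterol route, ACSS2, FASN and ELOVL6 of the fatty acid route, and INSIG1; ACSS2 and FASN were just under 2-fold after quantile normalization. MSMO1 had the lowest value, a log2 difference of -2.72, below which lay 3.03% of all genes, and with ELOVL6 at -2.07 it made up the 2 members past 4-fold, against 4.96% of genes. The median log2 difference was -0.996 over all members, -1.10 over the cholesterol enzymes, -0.93 over the fatty acid genes and -0.06 over the regulators, against 0.01 over all genes. By step of the cholesterol route, the median was -1.05 for the 6 mevalonate enzymes and -1.23 for the 8 later enzymes. Among the enzymes, SC5D, NSDHL, PMVK, SCD and ACACA were within 1.5-fold. Serum type and insulin differed between these cultures together with line and cytokine, and their part was not tested.

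**Figure D2:**
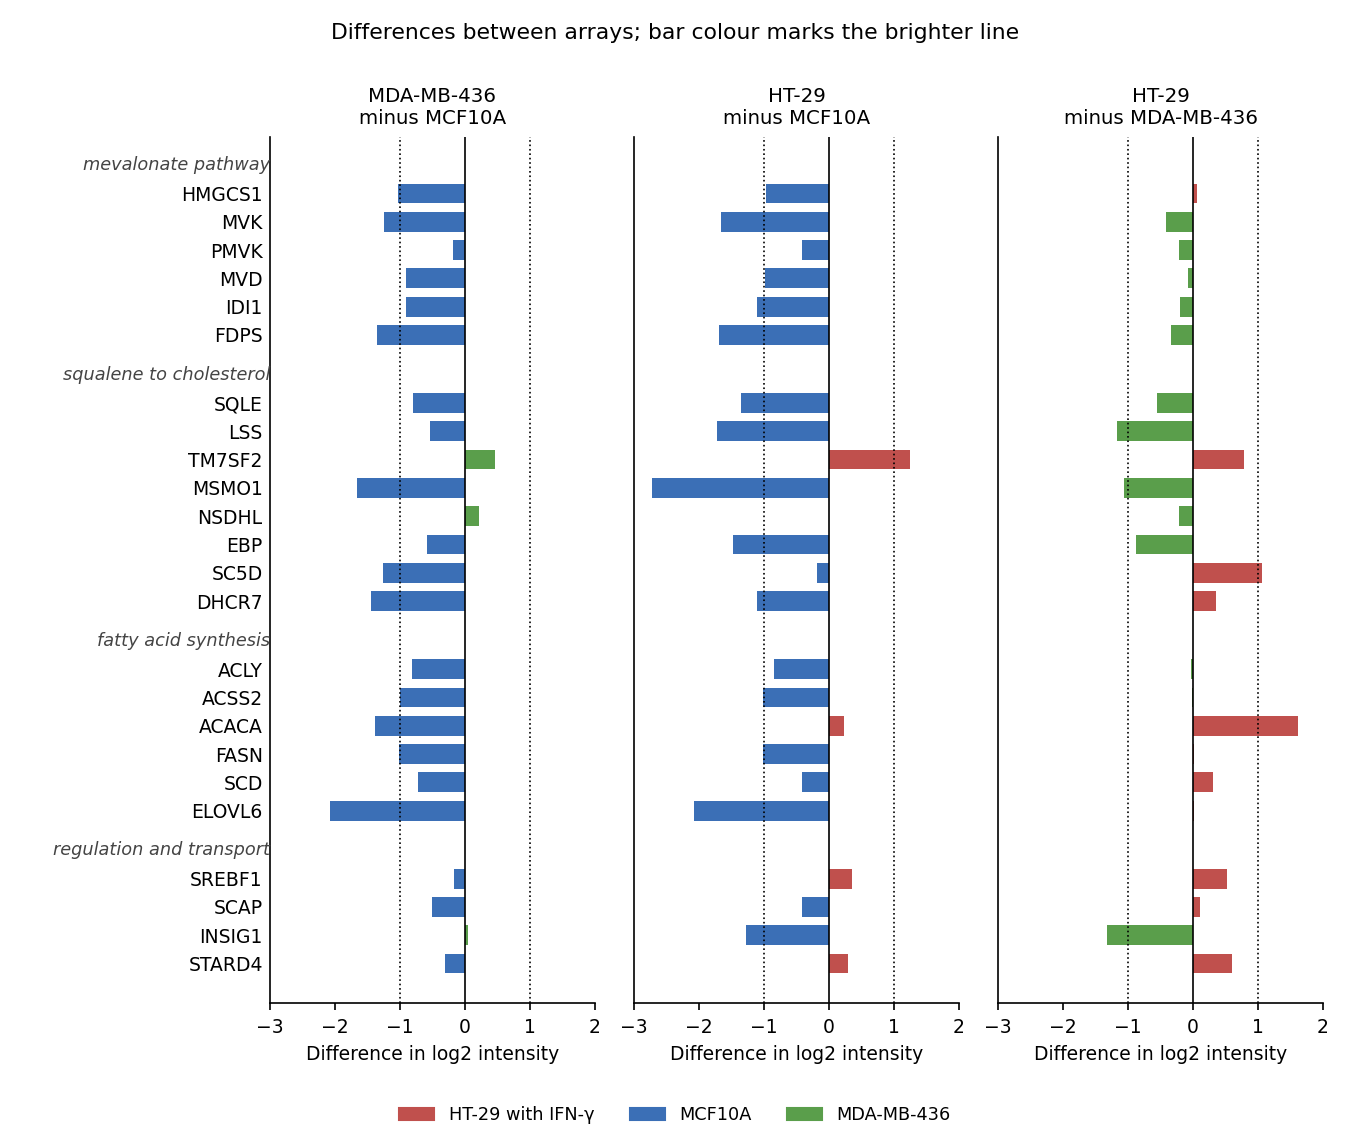
Difference in log2 intensity (x axis) of the 24 genes for MDA-MB-436 minus MCF10A, HT-29 with IFN-γ minus MCF10A and HT-29 minus MDA-MB-436, 1 array per line; bars take the colour of the brighter line and dotted lines mark 2-fold. Most bars of the first 2 panels point towards MCF10A, with ELOVL6 at -2.08 and MSMO1 at -2.72 as the longest, and the panels share the MCF10A array.

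HT-29 with IFN-γ and MDA-MB-436 were the closest pair for these genes. Of 24 members, 2 exceeded 2-fold in favour of HT-29, SC5D and ACACA, against 15.8% of 10531 genes, and 3 were lower, LSS, MSMO1 and INSIG1, against 15%. The shares of 8.33% and 12.5% are near or under the background and show no common direction. The median log2 difference was -0.03 for the members and 0.08 for all genes. It was -0.22 over the 14 cholesterol enzymes, of which 10 were lower in HT-29 as deposited. Over the 6 fatty acid genes it was 0.01 and over the 4 regulators 0.32. The cholesterol median was -0.35 after quantile normalization, against 0.01 for all genes, and -0.13 after centring, against 0.18. Within 1.5-fold lay 16 of 24 members (66.7%), against 48.9% of all genes, and within 1.1-fold 7 members (29.2%), against 13.4%: HMGCS1, MVD, ACLY, ACSS2, FASN, ELOVL6 and SCAP. The sign of all 7 of these and of SCD turned with the scaling, so no direction is given for them. After quantile normalization 1 member was higher, without SC5D, and 4 were lower, with EBP added; after centring 2 were higher and 2 lower, without MSMO1. ACACA was the member highest over MDA-MB-436, with a log2 difference of 1.62, and INSIG1 the lowest, at -1.33.

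**Figure D3:**
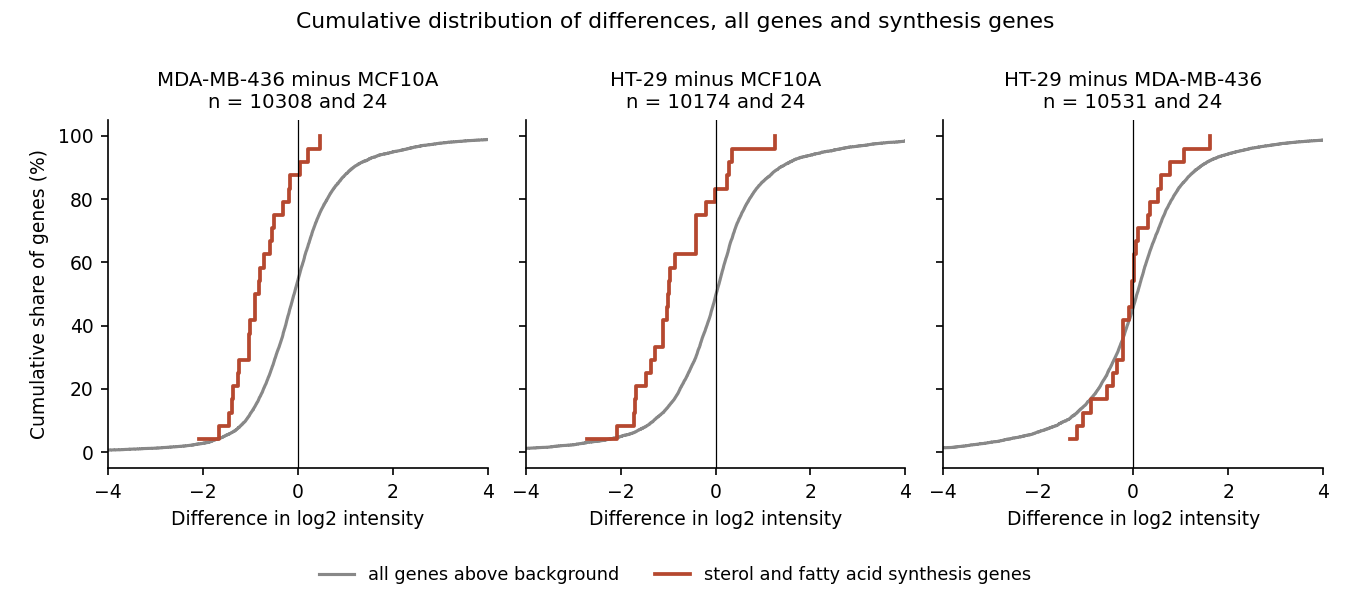
Cumulative share of genes (y axis, percent) by difference in log2 intensity (x axis, shown from -4 to 4) for all genes above background (grey) and the 24 synthesis genes (red) in the 3 comparisons. The red curve lies left of the grey one in the comparisons with MCF10A, with medians of -0.86 and -0.996 against -0.08 and 0.01, and crosses it for HT-29 minus MDA-MB-436.

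Neighbouring pathways were read from lists fixed with earlier results of these data known. In uptake and sterol handling, 11 of 17 listed genes were measured. For MDA-MB-436 minus MCF10A, 2 were at least 2-fold higher and 1 lower, against 12.2% of all genes each way. For HT-29 minus MCF10A, 2 were higher and 3 lower, or 1 and 3 after quantile normalization, against 14.4% and 14.3%. CH25H, a hydroxylase that turns cholesterol into an oxysterol that blocks the pathway and a gene known as interferon responsive in immune cells, was at 6.4 in HT-29 with IFN-γ, at 5.03 in MCF10A and at 296 in MDA-MB-436. Against the background, MDA-MB-436 exceeded either other line by at least 9.9-fold, and CH25H was under background in the cells given IFN-γ. MYLIP, a ligase that marks the LDL receptor for breakdown, was at 187, 37.8 and 47.7, 4.96-fold higher in HT-29 than in MCF10A. SOAT1, which esterifies cholesterol for storage, was at 127, 497 and 531, with HT-29 alone low. LIPA, the lysosomal lipase that frees cholesterol from lipoproteins, was at 361, 949 and 405, and the lipoprotein receptor gene SCARB1 at 176, 449 and 331. INSIG2, the second INSIG gene, was at 107, 49.7 and 111, lowest in MCF10A, whereas INSIG1 was lowest in HT-29.

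The isoprenoid branch uses farnesyl diphosphate for protein prenylation and ubiquinone. Of 9 measured genes, 2 were lower in MDA-MB-436 than in MCF10A by 2-fold or more, with 0 higher, against 12.2% of all genes each way, and the median log2 difference was -0.65 against -0.08. HT-29 minus MCF10A gave 3 lower and 0 higher, against 14.3% and 14.4%, and a median of -0.63 against 0.01. FNTA, a farnesyltransferase subunit, was at 377 in HT-29, at 892 in MCF10A and at 378 in MDA-MB-436. RABGGTA, a subunit of the enzyme that prenylates Rab proteins, was at 148, 502 and 210.1. Both were more than 2-fold higher in MCF10A than in the other lines. PDSS1, which builds the ubiquinone side chain, was at 182, 419.5 and 422, low in HT-29 alone, and its partner PDSS2 was at 42.1, 77.2 and 54.8.

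Of 13 measured genes on the list of elongation and desaturation, 5 were lower in HT-29 than in MCF10A by 2-fold or more and 0 higher. Against MDA-MB-436, 7 were lower in HT-29 and 0 higher. Among all genes 14.3% and 15% were lower. The list also holds the carboxylase gene ACACB, counted lower each time, and the mitochondrial genes OXSM and MECR. These counts include values under background. With HT-29 set to the background, ACACB was at least 1.99-fold below MCF10A. ELOVL4 was then at least 1.09-fold below MDA-MB-436. After quantile normalization 6 genes were lower in HT-29 than in MCF10A and 9 lower than in MDA-MB-436. The shares of all genes were then 13.9% and 16.3%. After centring the counts were 6 and 7, against 14.6% and 13.7% of all genes. MDA-MB-436 minus MCF10A gave 2 higher and 1 lower, against 12.2% each way, with 4 and 2 after quantile normalization and 1 and 2 after centring. FADS1, a desaturase of polyunsaturated fatty acids, was at 29.7 in HT-29, at 695 in MCF10A and at 1266 in MDA-MB-436. FADS2, its neighbour in the same route, was at 15.3, 299 and 429. Both were under background in HT-29, FADS1 only just, at least 23.2-fold and at least 10.0-fold below MCF10A and at least 42.3-fold and 14.3-fold below MDA-MB-436. The desaturase gene SCD5, named after its values were seen, was at 34.1, 196 and 147, while SCD, described above, was within 1.33-fold between HT-29 and MCF10A. ELOVL2, an elongase of polyunsaturated fatty acids, was above background in MDA-MB-436 alone, at 202 against 11.2 in HT-29 and 9.71 in MCF10A. ELOVL4, an elongase of very long chains, was at 5.98, 88.6 and 32.5.

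A list of acyl-CoA, NADPH and glycerolipid genes differed in both directions in HT-29. It also holds genes with other roles, such as PNPLA2, counted higher below, and FABP5, counted lower. Of 21 measured, 5 were higher by 2-fold or more and 7 lower than in MCF10A, against 14.4% and 14.3% of all genes. For MDA-MB-436 minus MCF10A, 1 was higher and 1 lower, against 12.2% each way. ACSL5, an acyl-CoA synthetase abundant in intestine, was at 2246 in HT-29 and under background in both mammary lines, at 17.1 in MCF10A and 29.2 in MDA-MB-436, a difference of at least 75.1-fold. GPAT3, which starts glycerolipid synthesis, was at 417, 47.5 and 240.4, and ACSS1, the mitochondrial counterpart of ACSS2, at 199, 36.3 and 57.7. These genes were highest in HT-29, as was the lipase gene PNPLA2 at 775, 305 and 278. AGPAT5, an acyltransferase, was at 99.7, 653 and 358, and the fatty acid binding protein gene FABP5 at 51.3, 391 and 132, both lowest in HT-29.

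The sterol-activated LXR receptors and the transporters they induce act against cholesterol accumulation. Of 8 measured genes, 2 were higher in HT-29 than in MCF10A by 2-fold or more and 0 lower, against 14.4% and 14.3% of all genes, and MDA-MB-436 minus MCF10A gave 1 higher and 0 lower, against 12.2% each way. For lists this short, these counts are near the background. NR1H3, which encodes LXR alpha, was at 94.5 in HT-29, at 30.8 in MCF10A and at 57.6 in MDA-MB-436. The efflux transporter ABCG1 was at 129, 58.2 and 44.5. ABCA1, the other main efflux transporter, was under background in HT-29 and MCF10A, at 15.8 and 10.6, and at 94.3 in MDA-MB-436, at least 3.15-fold higher. RXRB, a partner receptor, was at 223, 146 and 98.8. Apart from RXRB and ABCG1 in HT-29 and RXRB in MCF10A, these values did not reach 101, the highest olfactory receptor value.

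**Figure D4:**
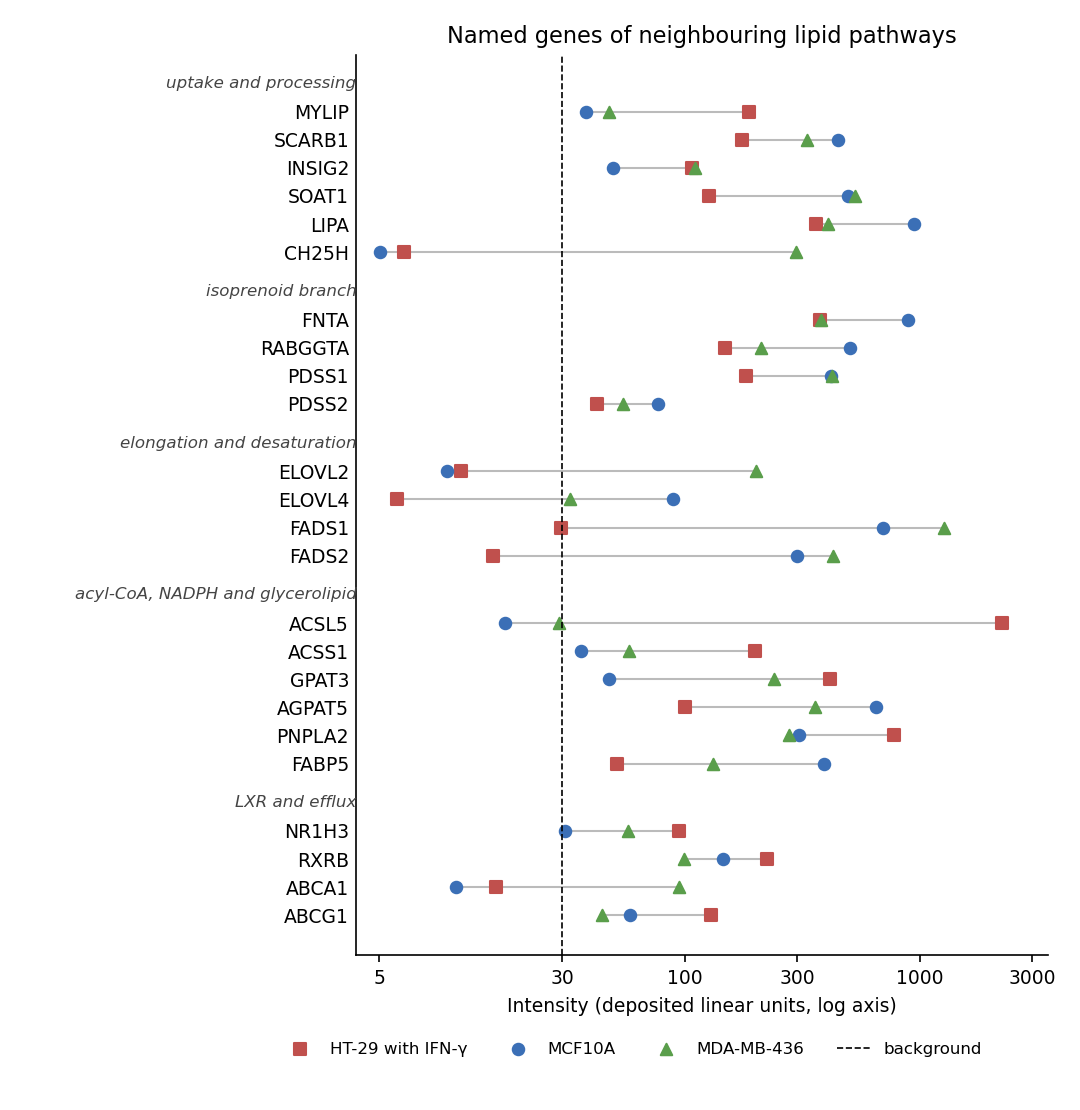
Intensity (x axis, deposited linear units on a log scale) of the named genes of 5 neighbouring lipid lists in HT-29 with IFN-γ (red squares), MCF10A (blue circles) and MDA-MB-436 (green triangles), 1 array each; the dashed line is the background of 29.9. CH25H at 296 and ELOVL2 at 202 are above background in MDA-MB-436 alone, ACSL5 at 2246 in HT-29 alone, and FADS1 and FADS2 in the mammary lines alone.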

How the data were processed

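Total RNA from 3 cell lines was labelled with biotin and hybridised, per the labels' protocols, to exon arrays, 1 per line. The authors deposited 1 linear intensity per array for each of 18708 transcript clusters. Per the submitters' processing notes the build is hg19; summary, background correction and normalization are not given in the sources used here. Distributions of the 3 deposited columns differ. Clusters were named from the platform annotation; 14733 had 1 symbol, 2875 several and 1100 none, and 14705 symbols were matched by gene identifier to RefSeq (GRCh38.p14). The brightest cluster per gene was used; each member had 1.

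Intensities were log2 transformed without a pseudocount. A gene was counted at 2-fold or more with its higher intensity above background, and percentages are over genes so eligible. Where the lower value was under background, the printed fold uses the background instead and is written "at least". Counts, medians and log2 differences use the lower value as deposited, also where it is under background. Every member is named; from each other list up to 4 genes with the largest difference and up to 2 against the list's median are named, with CH25H and INSIG2. Values within 1.5-fold are called close. Promoter windows came from RefSeq. Members and lists were chosen with earlier results of these data known. The counting was tested only on simulated 4-fold changes of bright genes, so folds near 2 and dim genes were not tested. The number of arrays limits the precision. Tools were pandas 2.3.3 and numpy 2.4.6 under Python 3.11.15, with figures from matplotlib 3.10.9.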

Additional observations from a re-analysis of the deposited data

How the results depend on the processing

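The alternatives were quantile normalization, median centring, folds of 1.5 and 4, no filter or a background raised to the 99th percentile of the olfactory receptors, values under background set to it, and a gene's clusters taken by their median; leaving out the 4 members under the highest olfactory receptor value in any line was chosen after seeing the data. No paired analysis was possible because each line had 1 array, and for the same reason no array could be left out. Of 99 values recomputed, 42 could not change, because each member has 1 cluster and lies above both backgrounds in every line, which sets the outcome of the filters, the floor and the cluster median in advance. Of the other 57, 45 kept their direction and moved by less than 0.2 on the log2 scale, or stayed within 1.5 times for counts. Some of these were also set in advance. The 4 members left out hold no fatty acid gene, so the fatty acid medians could not change. A count of 0 cannot rise at 4-fold or when members are left out. Median centring adds 1 constant per comparison, -0.11, -0.01 and 0.09 here. It could therefore turn a sign but not move a median by 0.2. After quantile normalization the members' median for MDA-MB-436 minus MCF10A was -0.62, the fatty acid median for HT-29 minus MDA-MB-436 turned from 0.01 to -0.11, and 1 member in place of 2 was higher in HT-29 than in MDA-MB-436. After median centring the members' median for that comparison turned from -0.026 to 0.068. At 1.5-fold, 16 members were lower in MDA-MB-436 than in MCF10A, with 4 higher in HT-29 than in MDA-MB-436. At 4-fold, 1 was lower in MDA-MB-436 than in MCF10A, 2 were lower and 0 higher in HT-29 than in MCF10A, and 0 were higher and 0 lower in HT-29 than in MDA-MB-436. Without the members near background, which include TM7SF2, 0 were higher in HT-29 than in MCF10A. Scaling turned the sign of 8 members for HT-29 minus MDA-MB-436, 1 for MDA-MB-436 minus MCF10A and 0 for HT-29 minus MCF10A, and changed whether 3, 6 and 2 members were counted at 2-fold.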
